A study of Mus musculus with 6 samples.

Results

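The IRF, STAT and SOCS regulators examined here are 9 named genes, matched by symbol among the 54532 genes in the deposited table: the transcription factors Irf1, Irf2, Irf7, Irf8 and Irf9, the transcription factors Stat2 and Stat3, and the signalling inhibitors Socs1 and Socs3. Their polyA RNA was measured in 6 samples of whole colon tumor, 3 from Tmem173fl/fl mice (WT in the labels) and 3 from Tmem173iΔmye mice (Tmem173fl/flLzym-Creert2, CRE in the labels). Both groups carry floxed Tmem173, which encodes STING, the adaptor of cytosolic DNA sensing. Both received the carcinogen azoxymethane (AOM) with 3 cycles of dextran sodium sulfate (DSS), which injures the colon epithelium, and then tamoxifen (the AOM+DSS-L groups), and no age is given in the labels. The groups differ by a tamoxifen-inducible Cre driven from Lyz2, which is active mainly in macrophages, monocytes and neutrophils, so the deletion is directed at myeloid cells. The comparison asks how loss of myeloid STING after tumors have formed bears on gene expression in the tumor. No label says that each sample came from a separate mouse, so the p-values measure the spread between these samples. Every fold change is given as Tmem173iΔmye over Tmem173fl/fl.

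Between 15329810 and 16533732 reads were counted on genes per tumor. Tmem173 itself had from 1705 to 2911 counts in the Tmem173fl/fl and from 1953 to 2291 in the Tmem173iΔmye tumors, at a log2 fold change of 0.0015 (SE 0.24); its groups overlapped, and the counts cover the whole gene rather than the deleted part, so they do not check the genotype. Epithelial markers (Epcam and keratins among 8 genes) summed to between 11330 and 13650 counts scaled to library size, as CPM, in every tumor, as the tissue label says. Reads of Y-linked genes were present in replicate 1 of Tmem173fl/fl and in Tmem173iΔmye replicates 1 and 2 (2655 to 3547 counts) and absent from the other 3 tumors (2 counts at most), so these reads were not balanced between the groups. In whole tumor RNA, a change in the number of cells that use a gene and a change in the RNA per cell cannot be told apart.

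Interferons bind receptors whose JAK kinases phosphorylate STAT proteins. Type I interferon brings STAT2 and IRF9 together in the complex ISGF3, which binds interferon-stimulated response elements (ISRE), while interferon-γ acts through gamma-activated sites (GAS) and induces IRF1. IRF7 amplifies the production of type I interferon, IRF2 competes with IRF1 for the same DNA, and IRF8 directs the development of dendritic cells and monocytes. STAT3 carries signals of the IL-6 and IL-10 families and is widely active in inflamed and tumorous gut epithelium. SOCS1 restrains interferon signalling and SOCS3 restrains signalling through the IL-6 receptor subunit gp130.

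The DNA upstream of these genes is shown because elements of this kind are known to place several of the pathway's regulators under its own control. Windows of 250 bases upstream of the annotated transcript start were taken from RefSeq (GRCm38.p6), where all 9 genes matched, with 12 windows in all. They were searched on both strands for the GAS letters TTCNNNGAA, which read the same on either strand, and for the ISRE core letters TTTCNNTTTC or their reverse GAAANNGAAA. GAS letters were found upstream of 4 genes (Irf1, Irf2, Irf8 and Socs3) and ISRE letters upstream of 3 (Irf2, Stat2 and Socs1). Of all 32851 RefSeq windows of this length, 7.02% hold the GAS letters and 2.98% the ISRE letters. These shares are per window, while the 9 genes are counted per gene over all their windows, so the 2 are not alike. The 6 windows with a match are printed 5′ to 3′ on the strand of the gene, with the matching letters in capitals.
Irf1 (GAS; chr11:53769764-53770013, plus strand): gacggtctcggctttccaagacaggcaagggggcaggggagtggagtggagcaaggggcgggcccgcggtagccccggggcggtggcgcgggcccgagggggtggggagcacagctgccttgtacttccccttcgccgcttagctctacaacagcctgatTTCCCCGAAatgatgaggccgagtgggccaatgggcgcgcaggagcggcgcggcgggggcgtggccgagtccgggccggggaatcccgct
Irf8 (GAS at 2 places; chr8:120736108-120736357, plus strand): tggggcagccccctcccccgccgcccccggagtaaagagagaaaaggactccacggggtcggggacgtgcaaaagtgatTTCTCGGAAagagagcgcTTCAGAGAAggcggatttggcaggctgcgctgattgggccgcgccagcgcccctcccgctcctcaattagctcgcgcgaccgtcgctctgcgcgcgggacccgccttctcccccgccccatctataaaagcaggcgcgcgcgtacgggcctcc
Socs3 (GAS; chr11:117969367-117969616, minus strand): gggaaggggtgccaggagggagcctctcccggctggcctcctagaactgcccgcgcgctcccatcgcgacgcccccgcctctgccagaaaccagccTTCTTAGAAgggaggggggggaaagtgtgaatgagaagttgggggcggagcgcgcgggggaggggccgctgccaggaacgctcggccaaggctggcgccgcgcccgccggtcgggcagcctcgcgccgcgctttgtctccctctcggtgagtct
Socs1 (ISRE at 2 overlapping places; chr16:10785537-10785786, minus strand): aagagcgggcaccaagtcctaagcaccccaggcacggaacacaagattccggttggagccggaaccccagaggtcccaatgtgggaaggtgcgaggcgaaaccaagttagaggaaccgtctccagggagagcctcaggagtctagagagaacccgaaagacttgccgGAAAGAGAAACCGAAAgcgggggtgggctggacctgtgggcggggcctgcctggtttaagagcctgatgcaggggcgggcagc
Stat2 (ISRE; chr10:128270248-128270497, plus strand): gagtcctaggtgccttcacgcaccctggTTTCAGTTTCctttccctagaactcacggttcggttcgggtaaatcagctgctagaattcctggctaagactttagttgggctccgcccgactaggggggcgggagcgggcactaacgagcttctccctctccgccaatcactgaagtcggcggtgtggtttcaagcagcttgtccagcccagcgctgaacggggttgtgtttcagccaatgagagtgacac
Irf2 (ISRE, then GAS; chr8:46739495-46739744, plus strand): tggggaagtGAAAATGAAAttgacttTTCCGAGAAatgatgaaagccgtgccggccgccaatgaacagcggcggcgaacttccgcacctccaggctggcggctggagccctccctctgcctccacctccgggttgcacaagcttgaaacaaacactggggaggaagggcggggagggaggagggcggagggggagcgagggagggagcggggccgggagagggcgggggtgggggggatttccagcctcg
The GAS of Irf1 lies 90 to 82 bases before the transcript start. The ISRE pair of Socs1, GAAAGAGAAA and GAAACCGAAA, spans the bases from 83 to 68 before the start. Irf7, Irf9 and Stat3 have no such letters in these windows, nor do the second windows of Irf1, Irf8 and Irf9. The Irf9 windows and the Socs3 window lie inside those genes by the gene coordinates given below. The DNA before the outer ends of these genes was therefore not searched. These matches are letters in a reference genome, and binding was not measured.

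Levels per length are given as FPKM, the count divided by gene length and by a size factor of the library. Socs3, Irf1 and Stat3 were the most abundant of the 9 RNAs in the Tmem173fl/fl tumors. They stood at 36.3 ± 11.7, 31.1 ± 11.1 and 30.6 ± 2.98 FPKM (mean ± SD, n = 3). Their ranges overlapped, so these levels were not separated from each other. Irf9 (13.6 ± 1.67 FPKM, n = 3), Irf7 (12.2 ± 3.93), Stat2 (9.86 ± 1.37), Irf8 (7.96 ± 2.78) and Irf2 (7.35 ± 1.09) followed, below Stat3 in every Tmem173fl/fl tumor, and each overlapped the next. Socs1 was lowest, at 3.01 ± 0.67 FPKM, below Irf2 in all 3 tumors. In the Tmem173iΔmye tumors, Irf1 came first (55.3 ± 30.3 FPKM), and Irf7 (23.6 ± 9.24) stood ahead of Irf9 (18.8 ± 2.75), with overlapping ranges in each case. Socs1 remained last by its mean (6.37 ± 5.21 FPKM) but overlapped Irf2.

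All 9 genes, chosen with earlier results of these data known, had a log2 fold change above 0, where 49.4% of the 16426 genes tested did. The 9 genes fell into a group of 6 with log2 fold changes from 0.47 to 1.08 (Socs1, Irf7, Irf1, Stat2, Irf8 and Irf9) and a group of 3 at 0.05 or less (Irf2, Stat3 and Socs3). The median of the 9 was 0.48, against -0.0042 for all genes tested. By the quasi-likelihood test of edgeR, adjusted over all genes by Benjamini-Hochberg, 0 of the 9 had an adjusted p under 0.05, as did 0% of the genes tested. At an unadjusted p under 0.05, edgeR counted 3 of the 9 (Irf7, Irf9 and Stat2), all higher in Tmem173iΔmye tumors, against 6.14% of all genes in either and 3.23% in that direction. DESeq2 counted 5, adding Irf1 and Socs1, against 3.57% of all genes in that direction, and also gave 0 of the 9 an adjusted p under 0.05, against 0.165% of all genes. The study's limits, a log2 fold change of 1 or more in size together with an unadjusted p under 0.05, were passed by 0 of the 9 and by 2.12% of all genes with edgeR. With DESeq2, Socs1 passed them (log2 fold change 1.07, unadjusted p = 0.0358, DESeq2 adjusted p = 0.708).

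**Figure D1:**
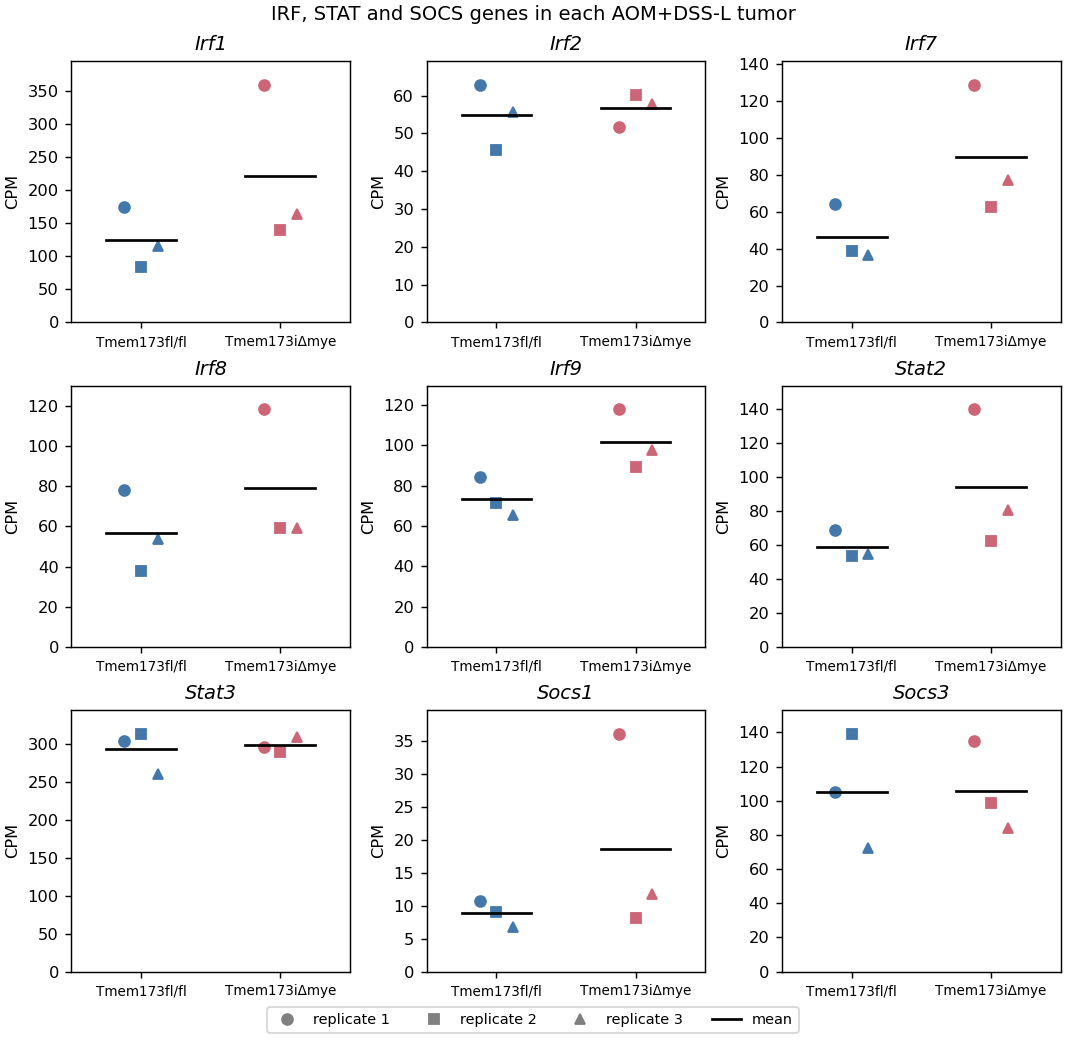
CPM of each of the 9 genes in each tumor, with the 3 Tmem173fl/fl tumors on the left of each panel and the 3 Tmem173iΔmye tumors on the right; marker shapes give the replicate number, horizontal lines the group means, and every axis starts at 0. Tmem173iΔmye replicate 1 (circle, right) is the highest tumor in 6 panels, but not in those of Irf2, Stat3 and Socs3. The groups overlap in every panel except that of Irf9.

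Irf9, the DNA-binding subunit of ISGF3 (chromosome 14, 55603571 to 55610030 of GRCm38), was the only member whose groups did not overlap, where 6.03% of all genes tested were higher without overlap. It had 84.1, 71.3 and 65.5 CPM across Tmem173fl/fl replicates 1, 2 and 3, and 118, 89.5 and 97.5 CPM across Tmem173iΔmye replicates 1, 2 and 3, the order used throughout. Its means were 73.6 ± 9.51 and 102 ± 14.6 CPM (SD, n = 3), a log2 fold change of 0.47 (SE 0.15, edgeR adjusted p = 0.742) with a 95% interval from 0.11 to 0.82. Every Tmem173iΔmye tumor lay above every Tmem173fl/fl tumor, the lowest of them (89.5 CPM) close to the highest Tmem173fl/fl tumor (84.1 CPM). Irf9 shares 123 bases with Rnf31 on the same strand, and reads there cannot be assigned to either gene alone.

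Stat2, its partner in ISGF3 (chromosome 10, 128270559 to 128292849), had 68.9, 53.3 and 54.4 CPM in the Tmem173fl/fl and 139.5, 62.3 and 80.2 CPM in the Tmem173iΔmye tumors. Tmem173iΔmye replicate 1 stood apart at 1.74 times the next highest tumor, and the groups overlapped because Tmem173iΔmye replicate 2 was below Tmem173fl/fl replicate 1. The log2 fold change was 0.67 (SE 0.29, edgeR adjusted p = 0.742), with a 95% interval from 0.010 to 1.34. Its unadjusted p of 0.0473 from edgeR lay close to the threshold and was 0.0939 with Y-linked reads as a covariate, 0.0503 when the filter was a mean FPKM of 1, and 0.0877 and 0.0862 by limma on log2(FPKM + 1) and log2(FPKM + 0.1). Without Tmem173fl/fl replicate 2 or 3 or Tmem173iΔmye replicate 1, edgeR gave an unadjusted p of 0.126, 0.120 and 0.177. Without Tmem173iΔmye replicate 2, Tmem173fl/fl replicate 1 or Tmem173iΔmye replicate 3, edgeR gave 0.00944, 0.0471 and 0.0485. Testing every gene with any count gave 0.0108 by edgeR, and the replicate number as a block 0.0115. By DESeq2 the unadjusted p was 0.0277.

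Irf7, the amplifier of type I interferon production (chromosome 7, 141262706 to 141266481), had 64.1, 38.9 and 36.3 CPM in the Tmem173fl/fl tumors. In the Tmem173iΔmye tumors it had 129, 62.7 and 77.1 CPM. The groups overlapped by a single pair, since Tmem173fl/fl replicate 1 (64.1 CPM) was just above Tmem173iΔmye replicate 2 (62.7 CPM). Its log2 fold change of 0.95 (SE 0.32, edgeR adjusted p = 0.742) had a 95% interval from 0.21 to 1.68, and it was the member with the lowest p-value by DESeq2 (DESeq2 adjusted p = 0.368). Irf7 overlaps Phrf1 on the opposite strand by 45 bases.

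Irf1, the transcriptional activator induced by interferon-γ (chromosome 11, 53770014 to 53778374), had 174, 84.1 and 116 CPM in the Tmem173fl/fl and 359.5, 139.7 and 164 CPM in the Tmem173iΔmye tumors. Tmem173iΔmye replicate 1 had 2.07 times the CPM of the next highest tumor, which was Tmem173fl/fl replicate 1, so the groups overlapped. The log2 fold change was 0.83 (SE 0.40, edgeR adjusted p = 0.742), and its 95% interval, from -0.10 to 1.75, included 0. The library kit named in the labels does not mark strand, so reads of Irf1 cannot be told apart from those of Gm17334, which overlaps it by 907 bases on the opposite strand and was given 9 to 37 counts per tumor.

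Irf2, the competitor of Irf1 (chromosome 8, 46739732 to 46847458), had 62.9, 45.7 and 55.8 CPM in the Tmem173fl/fl tumors. In the Tmem173iΔmye tumors it had 51.8, 60.3 and 57.7 CPM, and replicate 1 was the lowest of these. The groups overlapped fully, with a log2 fold change of 0.05 (SE 0.15, edgeR adjusted p = 0.946) and a 95% interval from -0.31 to 0.40.

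Irf8, which directs dendritic cell and monocyte development (chromosome 8, 120736358 to 120756694), had 78.2, 38.0 and 53.6 CPM in the Tmem173fl/fl and 118, 59.2 and 59.3 CPM in the Tmem173iΔmye tumors. Apart from Tmem173iΔmye replicate 1, all tumors lay between 38.0 and 78.2 CPM, and replicates 2 and 3 of the Tmem173iΔmye group were below Tmem173fl/fl replicate 1. The log2 fold change of 0.48 (SE 0.34, edgeR adjusted p = 0.757) had a 95% interval from -0.32 to 1.28. The table lists a longer gene model, Gm20388, over the whole of Irf8 with 0 counts in every tumor, and how reads shared by both models were counted was not tested.

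Stat3, which carries IL-6 and IL-10 family signals (chromosome 11, 100885098 to 100939540), varied least. It had 305, 313 and 261 CPM in the Tmem173fl/fl and 296.5, 290.2 and 310.0 CPM in the Tmem173iΔmye tumors, and its highest tumor was 1.2 times its lowest in CPM. The log2 fold change was 0.03 (SE 0.13, edgeR adjusted p = 0.963), with the narrowest 95% interval of the 9, from -0.28 to 0.33.

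Socs3, the inhibitor that STAT3 induces (chromosome 11, 117966079 to 117970047), had 105, 139 and 72.3 CPM in the Tmem173fl/fl and 135, 98.6 and 84.1 CPM in the Tmem173iΔmye tumors. High and low tumors were found in both groups, and its means were 105 ± 33.4 and 106 ± 26.4 CPM (SD, n = 3). The log2 fold change was 0.0078 (SE 0.26, edgeR adjusted p = 0.998), with a 95% interval from -0.61 to 0.62, which leaves room for a change of either sign.

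Socs1, the inhibitor of interferon signalling (chromosome 16, 10782240 to 10785536), had 165, 135 and 112 counts for Tmem173fl/fl against 570, 128 and 184 for Tmem173iΔmye. As CPM these were 10.7, 9.001 and 6.72 against 35.99, 8.07 and 11.7. Tmem173iΔmye replicate 1 had 3.07 times the CPM of the next highest tumor, the widest gap among the 9 genes, and Tmem173iΔmye replicate 2 lay below 2 of the 3 Tmem173fl/fl tumors. Socs1 therefore had the largest log2 fold change of the 9 and the widest interval, 1.08 (SE 0.53, edgeR adjusted p = 0.742) with a 95% interval from -0.15 to 2.31.

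Tmem173iΔmye replicate 1 was the highest of the 6 tumors for 6 of the 9 genes (Irf1, Irf7, Irf8, Irf9, Stat2 and Socs1), as it was for 24.9% of all genes tested. Among the Tmem173fl/fl tumors, replicate 1 was the highest for 7 of the 9. The share of all genes for which this held was not computed, so it cannot be called particular to these genes. Without Tmem173iΔmye replicate 1, the log2 fold changes were 0.59 for Irf7, 0.34 for Irf9, 0.28 for Irf1, 0.27 for Stat2, 0.16 for Socs1 and 0.06 for Irf8. The median of the 9 was then 0.16, and 0 of them had an unadjusted p under 0.05 by edgeR, which also held without Tmem173fl/fl replicate 3. Irf9 and Irf7 kept the largest part of their difference, and Socs1 and Irf8 the smallest. Socs3 turned to -0.21 and Irf2 and Stat3 stood at 0.10 and 0.03.

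**Figure D2:**
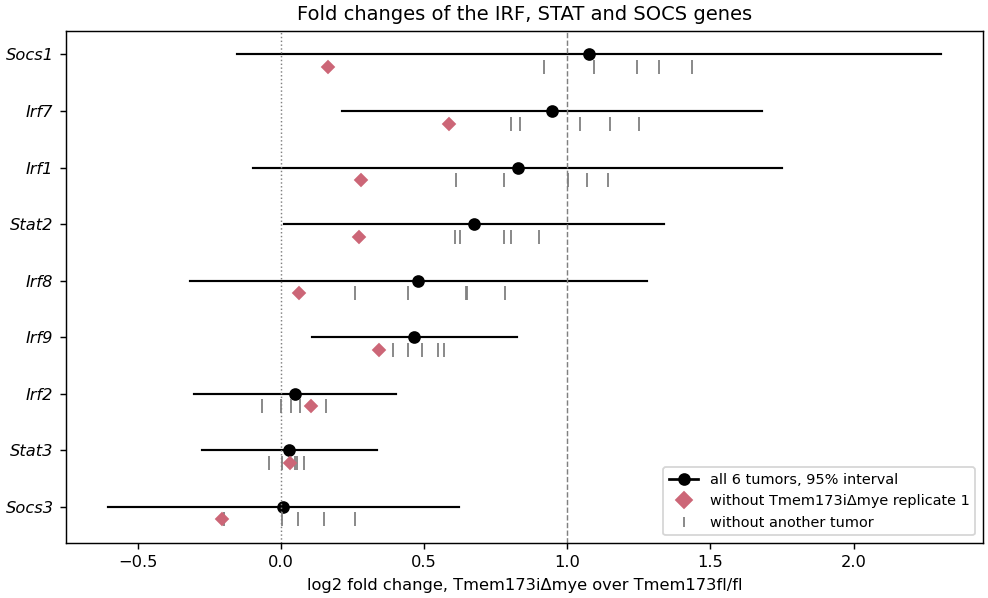
Log2 fold change of each gene, Tmem173iΔmye over Tmem173fl/fl, from edgeR: black points with lines are the estimates and 95% intervals over all 6 tumors, red diamonds the estimates without Tmem173iΔmye replicate 1 and grey ticks those without each of the other tumors; the dotted line is 0 and the dashed line a log2 fold change of 1. The diamond is the lowest estimate for Socs1, Irf7, Irf1, Stat2, Irf8 and Irf9 and lies near 0 for Socs1 (0.16) and Irf8 (0.06).

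When Y-linked reads entered the fit as a covariate (present or absent), the log2 fold changes were 0.81 for Irf7 and Socs1, 0.62 for Irf1, 0.56 for Stat2, 0.41 for Irf9, 0.28 for Irf8 and -0.09 for Socs3. Tmem173fl/fl replicate 1 and Tmem173iΔmye replicate 1, each the highest tumor of its group for Irf1, Irf7, Irf8, Irf9, Stat2 and Socs1, both carry Y-linked reads. The third tumor with such reads, Tmem173iΔmye replicate 2, was the lowest of its group for the same 6 genes. The part of sex in these levels was not tested beyond this fit.

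Ratios of FPKM within a tumor do not depend on the scaling of libraries. Irf1 exceeded its competitor Irf2 by 5.15, 3.42 and 3.86 times in the Tmem173fl/fl and by 12.9, 4.31 and 5.28 times in the Tmem173iΔmye tumors. The mean log2 ratio was higher by 0.70 in the Tmem173iΔmye tumors, and the groups overlapped (exact two-sided permutation test, p = 0.2, where 3 tumors against 3 cannot go below 0.1). Without Tmem173iΔmye replicate 1 the difference was 0.22. Irf9 to Stat2 was 1.34, 1.47 and 1.32 in the Tmem173fl/fl and 0.929, 1.58 and 1.34 in the Tmem173iΔmye tumors. Only in Tmem173iΔmye replicate 1 did Stat2 exceed Irf9, and the groups did not separate (difference of mean log2 ratios -0.14, exact permutation p = 0.8). Socs1 to Irf1 was 0.0843, 0.146 and 0.0794 against 0.137, 0.0789 and 0.0977. In Tmem173iΔmye replicate 1, where both RNAs were highest, this ratio lay within the range of the Tmem173fl/fl tumors (difference 0.04, exact permutation p = 1.0). Socs3 to Stat3 was 1.135, 1.46 and 0.912 in the Tmem173fl/fl and 1.504, 1.12 and 0.894 in the Tmem173iΔmye tumors (difference -0.0034, exact permutation p = 1.0).

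**Figure D3:**
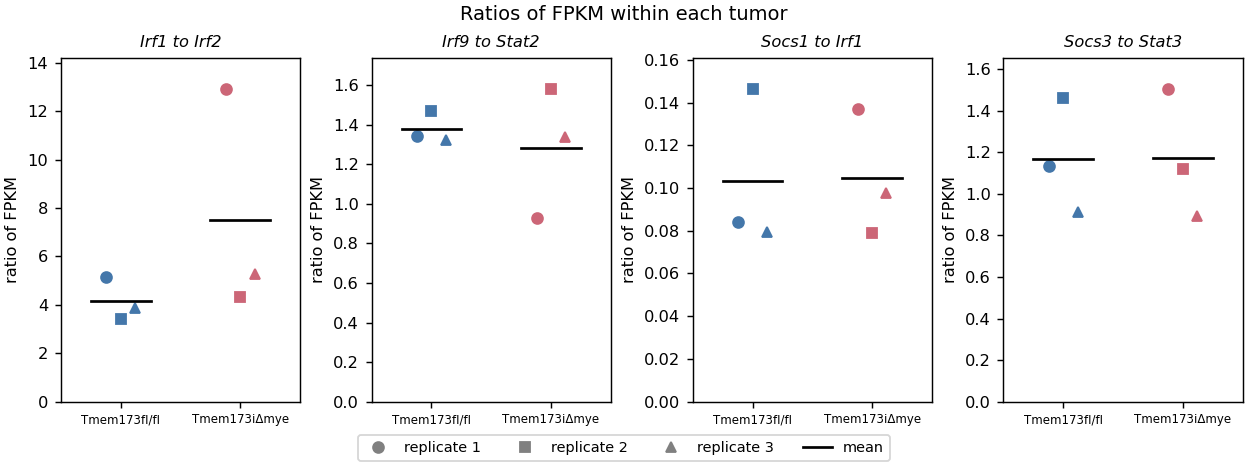
Ratio of FPKM of 2 genes within each tumor for 4 pairs, Tmem173fl/fl on the left and Tmem173iΔmye on the right of each panel; marker shapes give the replicate number, horizontal lines the group means, and every axis starts at 0. The Irf1 to Irf2 ratio of 12.9 in Tmem173iΔmye replicate 1 stands above the other 5 tumors, which lie between 3.42 and 5.28.

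The rest of the pathway was followed through 129 further genes in lists by role, of which 112 passed the filter on low values. Of these, 29 passed the limits, all higher in Tmem173iΔmye tumors, where 1.26% of all genes tested passed in this direction, and 0 had an adjusted p under 0.05 by edgeR. DESeq2 gave such a p to Irgm2 (DESeq2 adjusted p = 0.000819) and Ifit3 (DESeq2 adjusted p = 0.00525). Without Tmem173iΔmye replicate 1, 4 passed, namely Ifit3 (1.48), Oas3 (1.35), Oas2 (1.33) and Irgm2 (1.18) as log2 fold changes. The lists overlap in part and were chosen with earlier results of these data known, so their counts are no independent support. The passing genes lay mainly among the targets of the pathway.

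Of the other interferon regulatory factors and IRF2-binding proteins, 0 of 7 passed the limits. Irf3, which is phosphorylated downstream of STING, had 1220, 913 and 1324 counts for Tmem173fl/fl against 1385, 1336 and 1365 for Tmem173iΔmye. Its CPM did not overlap between the groups, where 6.03% of all genes tested were higher without overlap. The log2 fold change was 0.23 (SE 0.14, edgeR adjusted p = 0.742). Irf4, a factor of lymphocytes and plasma cells, stood at 0.35 (SE 0.53) on the same scale, and Irf2bpl at -0.34 (SE 0.15), lower without overlap. The share of all genes lower without overlap was not computed. The value of Irf4 rests on single tumors: without Tmem173fl/fl replicate 1 it was 1.19 and passed the limits, and without Tmem173fl/fl replicate 3 it was 0.0013.

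Of the other STAT genes reported here, 0 of 3 tested passed the limits. Stat5a and Stat5b, which carry signals of IL-2 and growth hormone, had log2 fold changes of -0.36 (SE 0.30) and -0.11 (SE 0.16). Stat6, which carries signals of IL-4 and IL-13, stood at -0.06 (SE 0.13). Stat3 overlaps Stat5a by 72 bases on the opposite strand.

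None of the other 6 SOCS family genes (Socs2, Socs4, Socs5, Socs6, Socs7 and Cish) passed the limits, with 0 of 6 log2 fold changes above 0 and a median of -0.11. The largest was that of Socs2, an inhibitor of growth hormone signalling, at -0.39 (SE 0.24), followed by Cish at -0.30 (SE 0.21) and Socs6 at -0.11 (SE 0.12). Among 9 other inhibitors of JAK-STAT signalling, 1 passed the limits, the ISG15 protease Usp18, which also blocks the type I interferon receptor (log2 fold change 1.01, SE 0.26). Of the rest, the inhibitors of activated STAT proteins Pias1 and Pias2 had log2 fold changes of -0.30 (SE 0.14) and -0.17 (SE 0.12), both lower without overlap and short of the limits.

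None of the kinases and receptors upstream passed the limits. Of the JAK kinases, 0 of 4 passed, with Jak2 at -0.14 (SE 0.12), Jak1 at -0.08 (SE 0.13) and Tyk2 at 0.04 (SE 0.11) on the log2 fold change scale. Of 6 interferon receptor genes, 0 passed, with Il10rb, a subunit of the IL-10 and interferon-λ receptors, at 0.26 (SE 0.17), Ifnar1 at -0.16 (SE 0.15) and Ifngr2 at -0.13 (SE 0.16). Of 7 receptors of the IL-6 and IL-10 families, 0 passed, with Il10ra at 0.28 (SE 0.23), Lifr at -0.24 (SE 0.15) and Il11ra1 at 0.15 (SE 0.14) and a median log2 fold change of -0.03. Of 9 genes of the signalling that activates IRF proteins, 0 passed the limits, with the kinase Ikbke at 0.36 (SE 0.14), Traf6 at -0.35 (SE 0.17) and Myd88 at 0.23 (SE 0.18).

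The ligands were close to the limit of detection. All 10 interferon genes listed fell under the filter, and those named here were chosen after the values were seen. Ifng had 0, 0 and 2 counts for Tmem173fl/fl against 50, 0 and 3 for Tmem173iΔmye. Ifnb1 had 0 counts in each Tmem173fl/fl tumor and 1, 1 and 0 counts in the Tmem173iΔmye tumors. Ifnk leaned the other way, with 4, 2 and 0 counts for Tmem173fl/fl against 0, 2 and 0 for Tmem173iΔmye. At this depth a count of 0 allows up to 3 counts. Ifng exceeded this floor only in Tmem173iΔmye replicate 1, the tumor in which 6 of the 9 regulators were highest. Ifnk exceeded it, by little, only in Tmem173fl/fl replicate 1. Counting error alone is covered by this floor.

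Of the cytokines that signal through STAT3, 3 of 7 passed the filter and 2 of these passed the limits. Osm, a cytokine of myeloid cells, had 37, 20 and 16 counts for Tmem173fl/fl against 147, 47 and 43 for Tmem173iΔmye, without overlap (log2 fold change 1.67, SE 0.59). Il11, made by stromal cells, had 70, 161 and 54 counts against 583, 103 and 241 (log2 fold change 1.66, SE 0.67), and its groups overlapped. Lif did not pass (0.50, SE 0.39). Without Tmem173iΔmye replicate 1, the log2 fold changes of Osm and Il11 were 0.86 and 0.82, short of the limits. In the same tumors Stat3 and Socs3 had the log2 fold changes of 0.03 and 0.0078 given above.

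**Figure D4:**
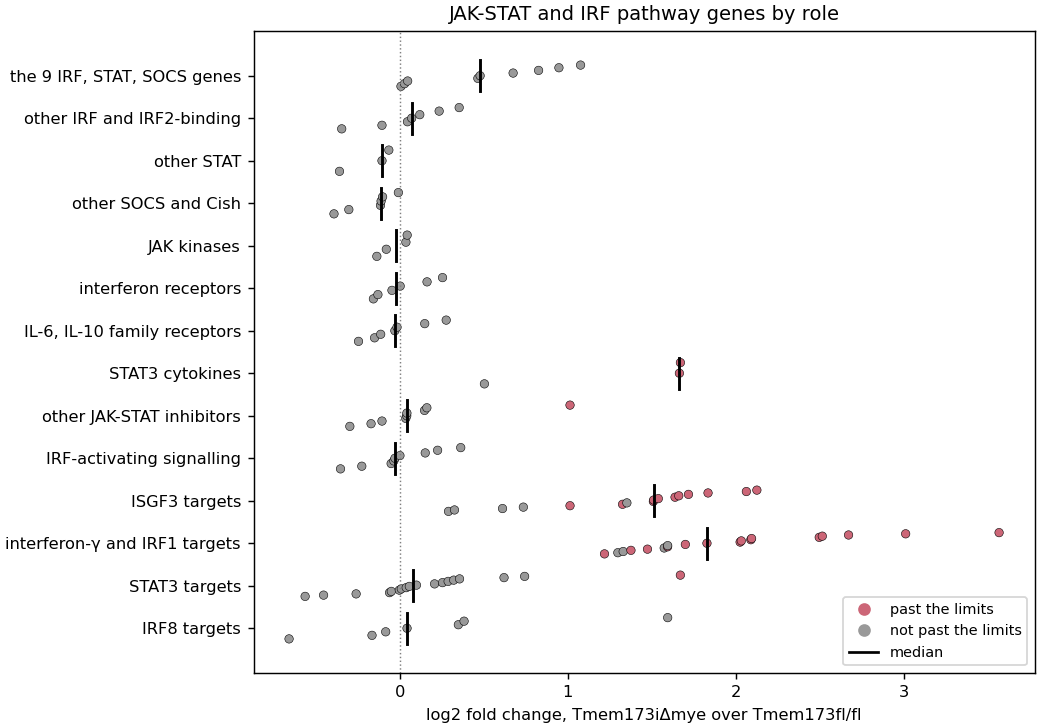
Log2 fold change, Tmem173iΔmye over Tmem173fl/fl, of each tested gene by role; red points passed the limits, grey points did not, and black bars are medians of a row (genes in 2 lists are drawn in both). Red points lie almost wholly among ISGF3 targets (11 of 16) and interferon-γ and IRF1 targets (15 of 19), while receptors, kinases and most inhibitors lie near 0.

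Targets of the factors were read from lists of textbook genes, chosen with earlier results of these data known. Of 16 ISGF3 targets, 11 passed the limits, all with higher means in Tmem173iΔmye tumors, and the median log2 fold change was 1.51. The groups did not overlap for 8 of the 16, where 6.03% of all genes tested were higher without overlap. Ifit3 had the lowest p-value among them (2.12, SE 0.47), with 95, 76 and 54 counts for Tmem173fl/fl against 574, 178 and 247 for Tmem173iΔmye, and it can share reads with a near-identical copy. The other 10 were Isg15 (2.06), Oas3 (1.83), Bst2 (1.72), Ifit1 (1.66), Oas2 (1.64), Oasl2 (1.54), Rsad2 (1.51), Mx1 (1.51), Ifit2 (1.33) and Usp18 (1.01), which encode antiviral proteins and regulators of interferon signalling. Tmem173iΔmye replicate 1 was the highest tumor for 15 of the 16 targets, as it was for 24.9% of all genes tested. Without it, Ifit3, Oas3 and Oas2 still passed the limits, while Isg15 stood at 1.21, Mx1 at 0.80, Ifit2 at 0.67 and Bst2 at 0.64. Tmem173fl/fl replicate 3 was the lowest tumor for all of the 16 except Oasl1 and Usp18. In the Tmem173fl/fl tumors, Isg15 had 205, 61 and 22 counts, and Ifit1 265, 271 and 58. The share of all genes lowest in that tumor was not computed. In the windows upstream of the ISGF3 targets, the ISRE letters were found for 7 of 12 matched genes, counted per gene and not per window.

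Of 20 targets of interferon-γ and IRF1, 19 passed the filter and 15 of these passed the limits, all higher, with a median log2 fold change of 1.83. The groups did not overlap for 2 of the 19, where 6.03% of all genes tested were higher without overlap. Tmem173iΔmye replicate 1 was the highest tumor for all 19, as it was for 24.9% of all genes tested. Irgm2, an immunity-related GTPase, had 769, 617 and 673 counts against 3137, 1324 and 1815, without overlap (log2 fold change 1.59, SE 0.30). Ido1, which degrades tryptophan, had 213, 21 and 131 counts for Tmem173fl/fl against 4098, 51 and 194 for Tmem173iΔmye, and its log2 fold change of 3.57 (SE 1.51) was 0.0091 without Tmem173iΔmye replicate 1. The other 13 were the chemokines Cxcl9 (3.01) and Cxcl10 (2.50), the GTPases Igtp (2.67), Iigp1 (2.51), Gbp4 (2.09), Gbp6 (2.09), Gbp5 (2.03), Gbp2 (2.03), Gbp3 (1.83), Irgm1 (1.38) and Gbp7 (1.22), the immunoproteasome subunit Psmb9 (1.70) and the checkpoint ligand Cd274 (1.47). Without Tmem173iΔmye replicate 1, these 13 log2 fold changes lay between 0.41 (Irgm1 and Gbp2) and 0.95 (Igtp), with Cxcl9 at 0.53, Cxcl10 at 0.48, Iigp1 at 0.52 and Gbp4 at 0.46, and none passed the limits. DESeq2 gave no p-value for Ido1. With DESeq2, Gbp2, Irgm1 and Psmb9 also fell short of the limits (DESeq2 unadjusted p = 0.0529, 0.0555 and 0.0557). In the windows upstream, the GAS letters were found for 5 and the ISRE letters for 8 of 13 matched genes, again counted per gene.

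Of 18 STAT3 targets other than Socs3, 1 passed the limits and 12 lay above 0, their median log2 fold change being 0.08. The passing gene was Saa3, an acute phase protein, with 618, 468 and 948 counts for Tmem173fl/fl against 4546, 901 and 1015 for Tmem173iΔmye (log2 fold change 1.67, SE 0.61, and 0.50 without Tmem173iΔmye replicate 1). Fos stood at 0.62 (SE 0.24) and Birc5, an inhibitor of apoptosis, at 0.74 (SE 0.34). Of 8 genes that IRF8 regulates, 7 passed the filter and 0 the limits, with a median of 0.04. Among them, Ciita, the activator of MHC class II genes, which is also a target of interferon-γ, had 1.59 (SE 0.78, and 0.23 without Tmem173iΔmye replicate 1), Ctss 0.38 (SE 0.27) and Cst3 0.35 (SE 0.21).

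Markers of the cells that use these regulators were read in the same tumors. The summed CPM of 8 natural killer and cytotoxic lymphocyte markers ranged from 3.47 to 8.52 in the Tmem173fl/fl and from 11.5 to 18.25 in the Tmem173iΔmye tumors, without overlap, and was highest in Tmem173iΔmye replicate 1. Of these markers 3 passed the filter, all 3 with a log2 fold change above 0. The 8 dendritic cell markers summed to 13.7 to 22.1 CPM against 22.9 to 29.7, without overlap but with little between 22.1 and 22.9. Of these markers 3 passed the filter, and only 2 of the 3 had a log2 fold change above 0. Their highest tumor was Tmem173iΔmye replicate 2, not the tumor in which Irf8 was highest. How often sums of this kind separate the groups was not tested. The 10 macrophage markers overlapped (616 to 918 against 593 to 977 CPM), as did the 8 T cell markers (10.6 to 27.2 against 18.65 to 35.0 CPM) and the 7 neutrophil markers (69.3 to 215.5 against 116 to 392 CPM). All 3 sums were highest in Tmem173iΔmye replicate 1. The 7 B cell markers were highest in Tmem173fl/fl replicate 1 (144 CPM). The 6 genes listed for plasmacytoid dendritic cells, 1 of which (Bst2) is also an ISGF3 target, overlapped (511 to 571 against 476 to 628 CPM). Bst2 gave only 10.4 to 99.4 CPM of these sums. The sum was lowest in Tmem173iΔmye replicate 1, where Bst2 was highest. Whether this sum reads plasmacytoid dendritic cells in whole tumor was not tested. No marker of these lists had 0 counts in all tumors. The part of cell numbers in the levels of Irf1, Irf7, Irf8, Stat2 and Socs1 was not tested.

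The genes with the most similar pattern over the 6 tumors were found by the root mean square difference of log2(CPM + 1), centred on each gene's mean. Nearest to Irf1 were Atp5e (0.07) and H2-T23 (0.08), the latter a nonclassical MHC class I gene. Nearest to Irf8 was Trafd1 (0.04), nearest to Irf7 was Etfb (0.11), nearest to Stat2 was Snrpd1 (0.08) and nearest to Socs1 was Upp1 (0.11). Nearest to Irf9 was Phlda1 (0.05), and to Irf2, Stat3 and Socs3 were Lrrc57 (0.03), Tm9sf3 (0.02) and Cdc25c (0.05). Among the 9 themselves, Irf1 lay nearest to Irf8 (0.19) and Irf7 to Stat2 (0.22). With 6 tumors and 16426 genes, a near match says nothing of shared control. There were 36 genes nearer to Irf1 than Irf8 was, and 196 nearer to Irf8 than Irf1 was. For the other members, the number of genes nearer than the nearest of the 9 ranged from 51 (Stat2 for Irf7) to 5385 (Irf2 for Stat3).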

How the data were processed

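RNA of 6 tumor samples was sequenced from polyA libraries. Per the labels, base calling with CASAVA 1.8, read filtering with fastp, alignment with HISAT2 2.0.5 to GRCm38 (mm10), counting with featureCounts 1.5.0-p3 and DESeq2 1.20.0 were used by the authors. The deposited table holds raw read counts per gene and FPKM, which the authors computed from the counts and gene lengths (checked: the largest relative difference was 4.96e-07). Its columns of the authors' group means, fold changes and p-values were not used.

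Genes whose mean FPKM reached 0.5 entered the tests (16426 of 54532) with edgeR 4.0.16 (TMM, quasi-likelihood test, group only) in R 4.3.3, and p-values were adjusted by Benjamini-Hochberg over all of them. DESeq2 1.42.0 and limma 3.58.1 served as alternatives, and the script was tested on simulated data. CPM were scaled by TMM. Library totals of 15329810 to 16533732 counts set the precision, and a count of 0 allows up to 3 counts. Ratios were compared by an exact permutation test.

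The 9 genes and all lists were chosen with earlier results of these data known. Of each list by role, every gene past the limits and otherwise the 3 tested genes with the lowest p are named, and for each of the 9 genes its nearest pattern. Promoter windows and their coordinates are from RefSeq (GRCm38.p6), gene coordinates from the deposited table. An item of the pathway lists is not reported here.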

Additional observations from a re-analysis of the deposited data

How the results depend on the processing

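The number of genes past the limits (349 in all, 0 of the 9 regulators, 29 pathway genes) depended on the fit. With every gene with any count tested, 872 genes and 1 regulator (Socs1) passed, and with DESeq2 1 regulator (Socs1). With limma on log2(FPKM + 1), 136 genes and 7 pathway genes passed, with limma on log2(FPKM + 0.1) 10 pathway genes, and with Y-linked reads as a covariate 211 genes and 15 pathway genes. Leaving out a tumor at a time gave 218 to 636 genes (636 without Tmem173fl/fl replicate 1, 218 without Tmem173fl/fl replicate 3), 0 to 3 regulators, 4 to 32 pathway genes (4 without Tmem173iΔmye replicate 1, 10 without Tmem173fl/fl replicate 2 or 3) and 7 to 9 regulators with a higher mean. The regulators that passed were Irf1, Irf7 and Socs1 without Tmem173iΔmye replicate 2, Irf1 and Irf7 without Tmem173fl/fl replicate 1, and Irf7 without Tmem173iΔmye replicate 3.

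The differences of log2 ratios ranged, leaving out a tumor at a time, from -0.30 to 0.0783 for Irf9 to Stat2, from -0.18 to 0.32 for Socs1 to Irf1 and from -0.20 to 0.18 for Socs3 to Stat3, while Irf1 to Irf2 stayed above 0 (0.22 to 1.02). With 1 added to each FPKM, the difference for the ratio Socs1 to Irf1 was -0.0759. The log2 fold changes that changed sign were small: Socs3 with Y-linked reads as a covariate (-0.0861) and, leaving out a tumor, Irf2 (-0.0668 to 0.16, and -0.0001 without Tmem173iΔmye replicate 2), Stat3 (-0.0433 to 0.0797), Socs3 (-0.21 to 0.26, and -0.20 without Tmem173fl/fl replicate 3), Stat5b (-0.24 to 0.0166), Stat6 (-0.1595 to 0.0149) and Tyk2 (-0.0062 to 0.0688). The causes of these changes were not tested. In none of the fits did any of the 9 regulators have an adjusted p under 0.05; over all genes, DESeq2 gave 27, the test of every gene with any count 6 and the fit without Tmem173iΔmye replicate 1 gave 1.

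The replicate numbers are shared by both groups, and nothing in the labels says that they pair the tumors. Deviations from the group means correlated by 0.316, 0.008 and 0.157 across genes for tumors of the same number, so the numbers were not taken as pairs, and not every tumor correlated best with its own number. When the replicate number entered the fit as a block, 377 genes passed the limits. The log2 fold changes of Irf7, Irf1 and Socs1 were then 0.93, 0.76 and 0.81 (adjusted p = 0.240, 0.342 and 0.572 from edgeR). With the block, edgeR gave 5 regulators an unadjusted p under 0.05 (Irf1, Irf7, Irf8, Irf9 and Stat2), against 3 without it. Over all genes tested these counts were 1504 and 1008. The SE fell from 0.40 to 0.15 for Irf1, 0.32 to 0.14 for Irf7 and 0.34 to 0.15 for Irf8. It rose only for Irf2 (0.15 to 0.16) and Stat3 (0.13 to 0.14). The p-values with the block thus rest on a pairing that the labels do not state. At this depth, the listed interferon genes lay at or under the floor of counts, apart from Ifng in Tmem173iΔmye replicate 1 and Ifnk in Tmem173fl/fl replicate 1.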
